A study of Homo sapiens with 32 samples.

Results

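The regions described here carried an m6A peak in both control libraries of PANC-1 cells and none in cells labelled as knockouts of CFL1 or of METTL3. They were chosen by the peak calls themselves. A control peak had to lie on chromosomes 1 to 22, be narrower than 2000 bp and overlap a peak of the other control library by at least 1 bp. It also had to overlap no peak in the lists of either knockout, and overlapping peaks were merged to one region. The rule gave 23642 regions, made of 47285 of the 157070 control peaks and covering 10442 kb. Absence from the knockouts is therefore how the regions were found and not a result, and the values that chose them are given as descriptions.

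N6-methyladenosine is an internal methyl mark on RNA. A nuclear enzyme complex places it while the RNA is made, with METTL3 as the catalytic subunit and METTL14 as its partner, and reader proteins that bind the mark affect splicing, export, translation and decay. In m6A-seq, RNA fragments bound by an antibody against the mark are sequenced, and stretches where they pile up are called as peaks. CFL1 is cofilin 1, a protein that severs actin filaments. The title of the series links CFL1 to m6A on RNA from super enhancers, which are dense clusters of enhancers.

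PANC-1 is an established human pancreatic ductal adenocarcinoma line. The 3 lists stand for control, CFL1 knockout and METTL3 knockout cells, each with 2 antibody samples of total RNA and 2 inputs, and the other 20 of the 32 labelled samples were not analysed here. Both antibody samples of control carry the treatment label none, where those of the knockouts carry m6A. The sources used here do not give how the knockouts were made, whether a line was 1 clone, or whether cultures were separate. Differences between libraries of a group may therefore be technical only. The knockout peak names carry the letters si, while the labels say knockout, and RNA levels of CFL1 and METTL3 were not analysed here. Libraries are named by the number in their peak names, which is 1 and 2 for control and 3 and 5 for either knockout. The control libraries held 77603 and 79467 peaks. Those of the CFL1 knockout held 72728 and 66295, and those of the METTL3 knockout 63859 and 64952. Read depth is unknown. Less RNA from a locus and less methylation of that RNA cannot be told apart in a list of peaks. Coordinates are those of hg19, and genes, exons, marker genes and sequences at these positions were not analysed here.

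The regions made up 45.1% of the control sites found in both libraries. Merged in the same way, control peaks called in both libraries formed 52413 sites. Of these, 23617 (exact 95% interval of the share 44.6% to 45.5%, counting error only) held a region absent from both knockouts. By library, 44.2% of such peaks of control 1 and 44.4% of those of control 2 were absent. These peaks overlap each other by the rule, which largely sets the likeness of the shares. Of the 52413 sites, 22754 overlapped no peak of the 4 knockout libraries over their whole length. Another 863 held an absent region beside a stretch that a knockout peak did overlap. Without the requirement of a second control library the number of regions was 39902 for control 2 alone and 40012 for control 1 alone. Peaks called in 1 control library only were absent from both knockouts more often, with 74.2% of 43963.

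Sites tended to be missing from all knockout libraries or present in all of them. Of the 52413 sites, 43.4% overlapped a peak in 0 of the 4 knockout libraries and 36.7% in all 4. The values between were small, at 6.30% for 1 library, 6.26% for 2 and 7.38% for 3. Strength in control went with this outcome. Strength is given as the lower of the 2 control libraries' −log10 q, where q is the p-value of the peak caller adjusted for multiple tests. Of sites with a value up to 3, 68.6% held an absent region, and of those between 10 and 20 it was 45.0%. The share fell to 25.1% between 20 and 50, to 8.12% between 50 and 100 and to 1.66% above 100 (69 of 4150 sites). Strength here is that of the whole site. Sites with no knockout peak over their whole length made up 7.01% between 50 and 100 and 1.13% above 100 (47 sites). Of the 23642 regions, 11859 reached a −log10 q of 5 in both control libraries and 5664 reached 10. Applying the rule to thresholded lists is a different count, and where every list is limited it also removes knockout peaks. It gave 13425 regions when every list was limited to a −log10 q of at least 5, 5930 with a limit of 10 on the control list, and 9527 with a fold of at least 4 everywhere.

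**Figure D1:**
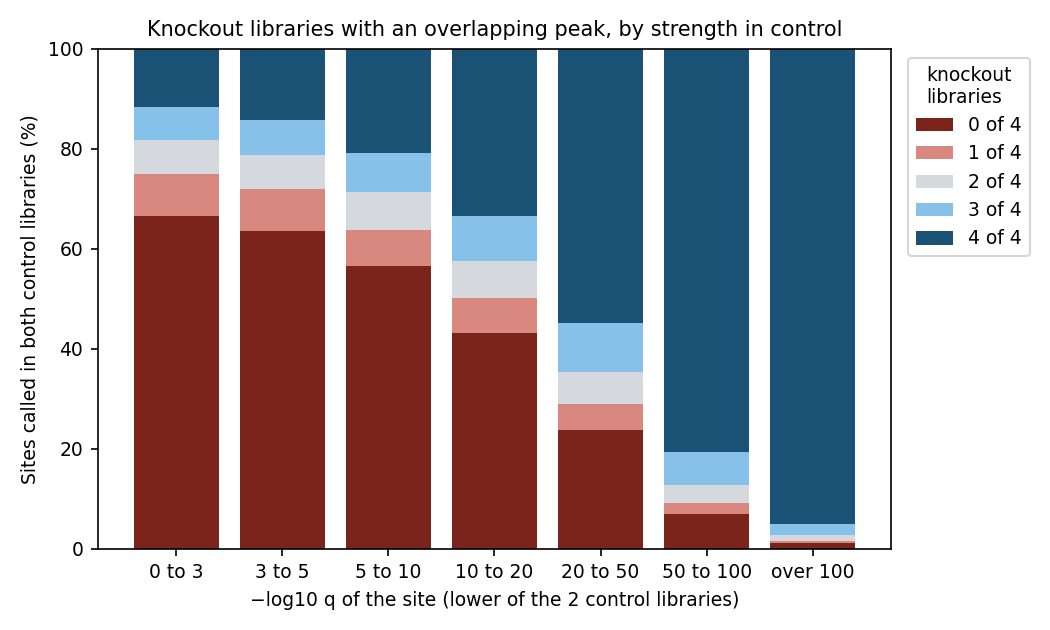
Sites called in both control libraries, in bins of the lower −log10 q of the 2 libraries (x axis), split by how many of the 4 knockout libraries had an overlapping peak (y axis, percent of sites). Sites without any knockout peak make up 66.5% of the weakest bin and 1.13% of the strongest, and sites with a peak in all 4 make up 11.6% and 95.1%.

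Most regions were modest peaks in control, with a thin tail of strong ones. In control 1 the −log10 q ran from 1.90 through a median of 7.52 to 275, and in control 2 from 1.91 through 7.04 to 308. Fold enrichment, the ratio that the authors' peak caller gave, had a median of 4.13 in control 1 and 3.81 in control 2, with highest values of 38.9 and 41.6. Both libraries gave like values at a region. The −log10 q of one was within a factor of 2 of the other in 70.9% of the 22649 regions with peaks of both libraries. Control 2 had the higher value in 47.8% of them. The summits of the libraries lay a median of 23 bp apart, and 69.0% were within 50 bp. Across these regions Pearson's r of log10-transformed −log10 q was 0.68, which describes regions of the same 2 libraries. The remaining 993 regions held peaks of only 1 library, because the partner in the other library was too wide or overlapped a knockout peak.

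In width the regions were small, with a median of 355 bp and an interquartile range of 278 to 523 bp. The widest region reached 3376 bp through merging. Sites found in all 6 libraries were wider at like strength. Between −log10 q of 5 and 10 the median width was 364 bp for sites with an absent region and 590 bp for the 2272 sites found in all 6 libraries. A wide site can meet a knockout peak by its length alone, and the part of this in the difference was not tested. Fold enrichment differed less between the same sets. The median of the lower fold was 3.87 against 4.01 in that bin and 5.36 against 5.43 between 20 and 50.

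The strongest regions had a high −log10 q in both control libraries, and the rule sets their lack of a listed knockout peak. In 324 regions both control libraries reached a −log10 q of at least 50, and in 47 both reached 100. The 12 with the highest lower value are named here, followed by the 4 with the highest lower fold among the regions not already named. In 10 of the 12, control 2 had the higher −log10 q.

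The first of them, chr19:40487510-40488340, had a −log10 q of 275 in control 1 and 292 in control 2, with folds of 6.64 and 6.06 and the same summit base in both. Its nearest knockout peak lay 3548 bp away, in METTL3 knockout 5, and had a −log10 q of 2.03. The region at chr6:74133689-74134387 had values of 195 and 278 and folds of 14.3 and 14.7. All 4 knockout libraries had a peak 521 to 729 bp from it, the nearest with a −log10 q of 40.8. The nearest knockout peak was thus farther off and weaker at the first region than at the second.

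Chromosome 16 held a pair of the 12 regions close together, 549 and 508 bp wide. At chr16:21440661-21441209 the −log10 q was 212 in control 1 and 196 in control 2, with a fold of 17.8 in both. At chr16:21439603-21440110 it was 202 and 158, with folds of 17.9 and 10.9. The same weak CFL1 knockout 5 peak (−log10 q 3.63) was the nearest to both, at 384 and 1483 bp. Within 10 kb of the first, absent regions included, there were 9 and 10 peaks in the control libraries and 6 to 8 in each knockout library, so this neighbourhood was not empty in the knockouts.

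The most isolated of the 12 was chr6:79911067-79911578, with a −log10 q of 160 in control 1 and 235 in control 2. The nearest knockout peak there was 31782 bp away. The region chr3:183493563-183493906 had the highest folds among the 12, at 29.0 and 27.5, with −log10 q of 182 and 189. Its nearest knockout peak was 9807 bp away with a −log10 q of 6.60. The region with the widest gap between the libraries was chr3:150262059-150262390, at 164 in control 1 and 308 in control 2. A METTL3 knockout 5 peak with a −log10 q of 2.98 lay 1599 bp from it, while the other 3 knockout libraries had none within 22201 bp.

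The others among the 12 were chr5:145493529-145493922 (−log10 q 190 and 247), chr11:125490535-125491137 (185 and 259.5), chr5:167990979-167991249 (184 and 265), chr15:65441554-65443384 (177 and 253) and chr2:101887791-101888218 (153 and 192). Their nearest knockout peaks lay between 1729 and 8765 bp away. The one on chromosome 15 measured 1831 bp, more than any other among the 12.

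Regions named for fold combined a high ratio with a lower −log10 q. At chr7:100136753-100137172 the fold was 33.5 in control 1 and 41.6 in control 2, and the nearest knockout peak was 14837 bp away. At chr18:12655802-12656248 it was 31.2 and 34.6, with a METTL3 knockout 3 peak 1455 bp away. At chr2:111314270-111314640 it was 38.4 and 29.4, and at chr15:75412398-75412721 it was 27.3 and 22.8. All 4 were strong in both control libraries.

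**Figure D2:**
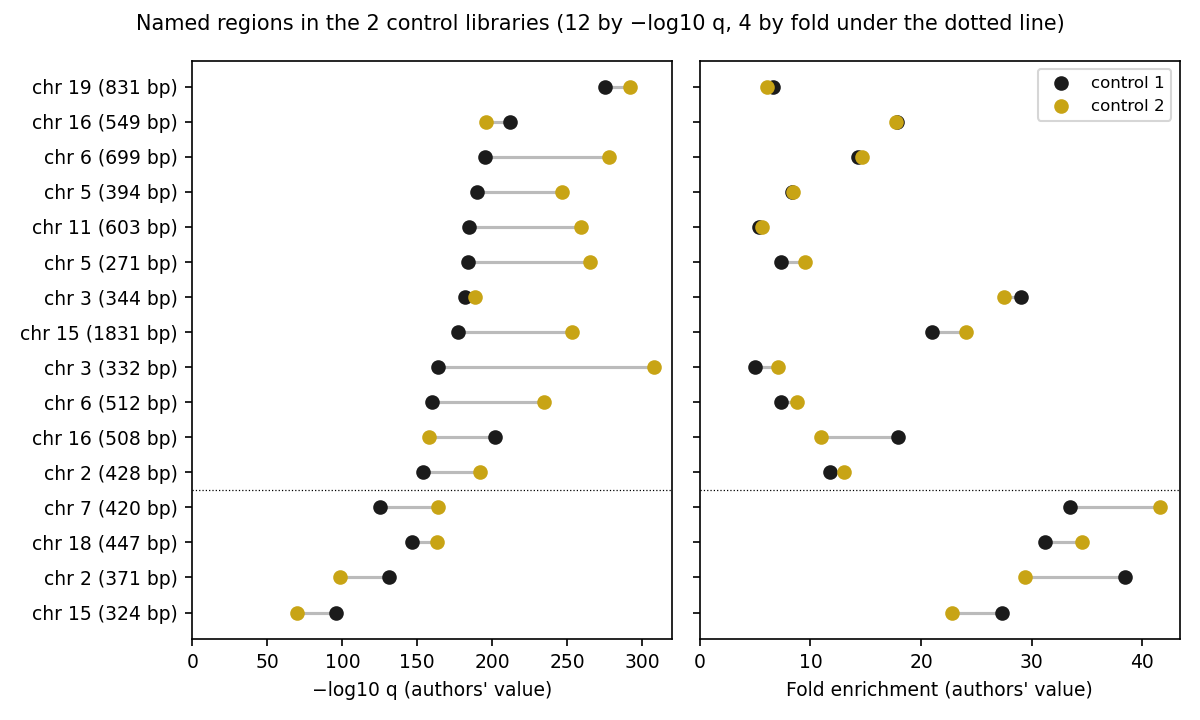
−log10 q (left) and fold enrichment (right), both the authors' values, of the 12 regions with the highest lower −log10 q and, under the dotted line, the 4 with the highest lower fold among the other regions, labelled by chromosome and width. Points are the 2 control libraries joined by a line, and by the rule none of the 4 knockout libraries has a listed peak at any of them. Control 2 lies to the right in 10 of the upper 12 on the left, and the folds of the libraries lie closer together.

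The distance to the nearest listed peak differed between knockout and control lists in a way that changed with range. The nearest peak of any knockout library was a median of 3967 bp from the region's edge, with quartiles of 1162 and 9873 bp. The nearest control peak outside the regions was closer at the median, at 1732 bp. At the shortest range the order was the other way, which the counting in part sets. Control peaks overlapping any region were left out, and knockout peaks came from 4 libraries against 2 for control. A knockout peak lay under 100 bp away for 876 regions (3.71%), and such a control peak for 89 (0.376%). In single knockout libraries the share ran from 1.26% (CFL1 knockout 5) to 1.48% (METTL3 knockout 3). Under 1 kb the shares for any knockout peak and for such a control peak were 22.7% and 35.7%. No knockout peak lay within 100 kb of 30 regions. The medians for single libraries were 6965 bp and 7929 bp for CFL1 knockout 3 and 5, and 7339 bp and 7456 bp for METTL3 knockout 3 and 5. The 324 strongest regions did not stand farther off, as their median to any knockout peak was 3142 bp.

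Around the regions, other peaks were fewer in the knockouts than in control within short distances. Peaks overlapping any of the regions were left out, and counts were scaled to 100000 peaks per library. The peaks left out were all of control by the rule. They still counted among the 100000, which lowers the scaled control values. The counts are still a description with no test. The regions were chosen for presence in control and absence in the knockouts, and absence was shared between neighbouring sites, so the choice in part sets the order of the libraries. Within 10 kb on each side, a region had a mean of 2.77 other peaks in control 1 and 2.29 in control 2. The CFL1 knockout libraries had 2.07 and 2.02, and those of METTL3 had 2.10 and 2.06. All 4 knockout libraries lay below both control libraries, and the mean of the knockouts was 0.815 times that of control. Without scaling the ratio was 0.696. Without control 1 the ratio was 0.901, and without control 2 it was 0.745.

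The ratio moved with the distance taken. Within 2 kb, control averaged 0.626 ± 0.0985 (SD, n = 2) other peaks. The average was 0.439 ± 0.00147 for CFL1 knockout libraries and 0.459 ± 0.00969 for METTL3 knockout libraries. The ratio there was 0.717. Within 50 kb it was 0.977, and none of the knockout libraries lay below both control libraries. The direction depended on which peaks were counted. When only those of −log10 q 10 or higher entered, again within 10 kb, control 1 and 2 had 2.31 and 2.17. The CFL1 libraries had 2.41 and 2.43, and the METTL3 libraries 2.46 and 2.50. That is a ratio of 1.09. Within 10 kb, scaled counts of neighbouring peaks were thus lower in the knockout libraries over all listed peaks and higher among the stronger ones.

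Sites found in all 6 libraries served as the reference. Around them control 1 and 2 had 2.18 and 2.20 other peaks within 10 kb. The values were 2.54 and 2.48 for the CFL1 libraries and 2.16 and 2.22 for the METTL3 libraries. Dividing the values around the absent regions by these gave 1.27 and 1.04 for control. The quotients were 0.815 and 0.816 for the CFL1 libraries and 0.973 and 0.928 for the METTL3 libraries. None of the 4 knockout quotients reached those of control. The reference sites were in turn required to have knockout peaks, so the quotient is set in part by both choices.

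**Figure D3:**
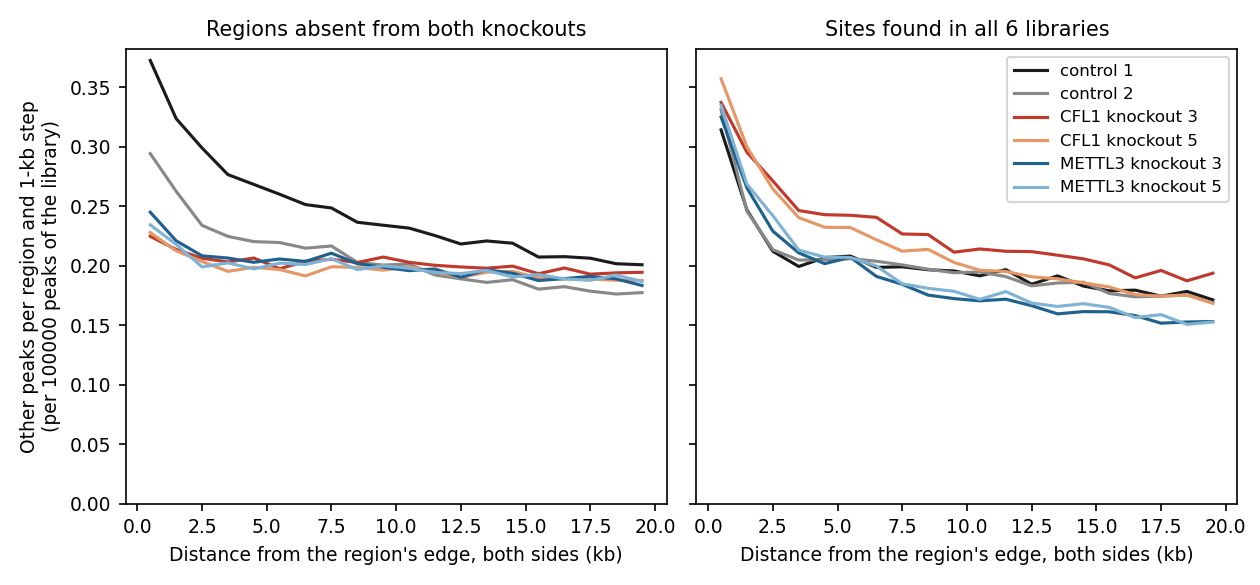
Mean number of other peaks in 1-kb steps from the region's edge, both sides added, for each library, scaled to 100000 peaks per library (y axis) against distance in kb (x axis). Around the absent regions (left) the control libraries start at 0.372 and 0.294 and the knockout libraries between 0.225 and 0.245, and at 19 to 20 kb all 6 lie between 0.177 and 0.201. Around sites of all 6 libraries (right) all curves start between 0.314 and 0.357.

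The lists do not hold every call. The lowest −log10 p in each of the 6 libraries was 4.00, and the numbers in the peak names, which follow position along each chromosome without exception, skip values. In the knockout libraries 41.8% to 50.2% of numbers were missing, against 22.5% and 28.6% in control 1 and 2. A knockout call may thus have been made at an absent region and removed from the list. For each region the numbers of the listed knockout peaks on either side show whether any call between them is missing. None was missing for 44.8% (CFL1 knockout 3), 58.7% (CFL1 knockout 5), 54.1% (METTL3 knockout 3) and 53.8% (METTL3 knockout 5) of regions. The intervals between those peaks were long, with medians of 38.9 to 43.5 kb, so a missing number need not lie at the region.

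For 4804 regions (20.3%) no number was missing in any of the 4 knockout libraries, so no removed call lay there either. Among the 5664 regions with a lower −log10 q of at least 10 this held for 1528 (27.0%), and among the 324 with at least 50 for 102 (31.5%). Among the 47 with at least 100 it held for 9 (19.1%). Of the 12 strongest regions, those at chr19:40487510-40488340 and chr6:74133689-74134387 were of this kind. For the other regions a removed call cannot be told apart from none.

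Absent sites came in stretches along the chromosomes. Of sites following an absent one at under 0.5 kb, 82.2% were also absent, against 16.2% of sites following one that was not. At 2 to 10 kb these shares were 64.1% and 32.3%, and at 100 kb or more 30.4% and 25.9%. Crowded sites were absent more often at the same strength. Among sites with a −log10 q between 5 and 10, 63.2% were absent where the nearest other site lay under 2 kb away. Where it lay 100 kb or more away, 23.8% of 160 sites were absent. Between 20 and 50 the shares were 31.8% and 9.92% (12 of 121 sites). Neighbouring sites can lie on the same RNA and are not independent.

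Counted along the chromosomes, the 23617 sites formed 8496 stretches uninterrupted by any other site of both control libraries. Of the sites, 17.2% stood alone, 48.0% were in stretches of at least 5, and 5201 lay in the 351 stretches of at least 10. Sites that were not absent also lay in stretches, 56.4% of them in those of at least 5. The 351 long stretches covered 35.0 Mb. They held 7404 peaks of control 1 and 6831 of control 2. Of the knockouts they held 617 and 467 (CFL1) and 493 in each METTL3 library, which the choice of sites in part sets. In 75 of them no knockout library had a single peak. Their sites were of ordinary strength, with a median lower −log10 q of 5.90 against 4.90 for absent sites standing alone.

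The longest stretch spanned chr17:57794252-58000514, with 47 sites over 206 kb. Control 1 had 73 peaks there and control 2 had 60. The CFL1 libraries had 4 and 2, and the METTL3 libraries 7 and 4. At chr19:33475999-33615126 there were 39 sites over 139 kb, with 59 and 46 control peaks and 1 to 4 in each knockout library. Both stretches kept a few knockout peaks, the strongest with a −log10 q of 131 and 32.8.

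A second stretch on chromosome 17, chr17:27095537-27168602, packed 38 sites into 73.1 kb. It held 53 and 41 control peaks and a single knockout peak, in CFL1 knockout 3, with a −log10 q of 11.6. No peak number was missing there in any of the 4 knockout libraries. At chr1:1700718-1821258 there were 33 sites, 44 and 39 control peaks and again 1 knockout peak, with a −log10 q of 2.47, and 0 to 2 numbers missing per knockout library. These sites were stronger than most, at a median lower −log10 q of 14.2.

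The next in length were chr2:203247892-203390844 with 32 sites, chr11:9233308-9297772 and chr12:57720911-57822154 with 31 each, and chr9:132671712-132805498 with 29. On chromosome 12 the libraries of control had 43 and 42 peaks, and the knockouts had 1 listed peak in all. Between 0 and 4 peak numbers were missing there per knockout library, so removed calls may have lain in this stretch. The 100-kb window with the most regions was chr7:2300001-2400000, with 36. It held 57 and 45 control peaks and 6 to 9 in each knockout library. Of its 41 sites, 1 was found in all 6 libraries. The next were chr17:27100001-27200000 with 34 and chr11:9200001-9300000 with 33. Each overlaps a stretch named above, so the same regions are in part counted again.

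**Figure D4:**
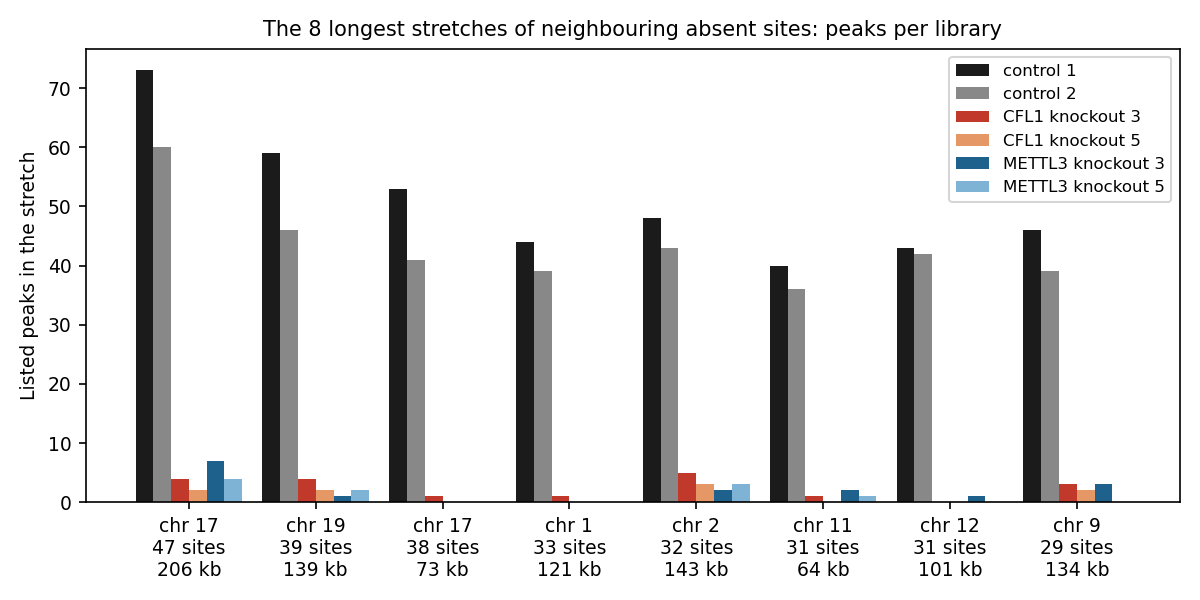
Number of listed peaks per library (y axis) in the 8 longest stretches of neighbouring absent sites (x axis: chromosome, number of sites and span). Each control library has 36 to 73 peaks in every stretch and each knockout library 0 to 7. The absence of knockout peaks at the sites themselves is set by the choice of regions.

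Windows differed widely in the share of sites that were absent. Of the 2125 windows of 100 kb with at least 8 control sites, the median share was 50%. In 83 windows (3.91%) all sites were absent, up to 30 sites in 1 window, and in 104 (4.89%) none was. More than 75% were absent in 488 windows and under 25% in 448.

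By chromosome, the share of absent sites ran from 32.4% on chromosome 21 (205 of 633) to 50.6% on chromosome 17 (1720 of 3398). Chromosomes 13 and 9 were also low, at 36.4% and 38.3%, and chromosomes 15 and 12 high, at 50.2% and 48.8%. Control 1 and control 2 gave nearly the same values, with 31.1% and 31.4% of peaks on chromosome 21 and 49.4% and 49.8% on chromosome 15. The rule largely sets this likeness, because each peak counted had to overlap a peak of the other control library. Among sites with a −log10 q of at least 10 in both libraries the low end was the same, from 15.4% on chromosome 21 and 17.8% on chromosome 13. The high end was not, with 28.7% on chromosomes 1 and 19 against 26.9% on chromosome 17.

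**Figure D5:**
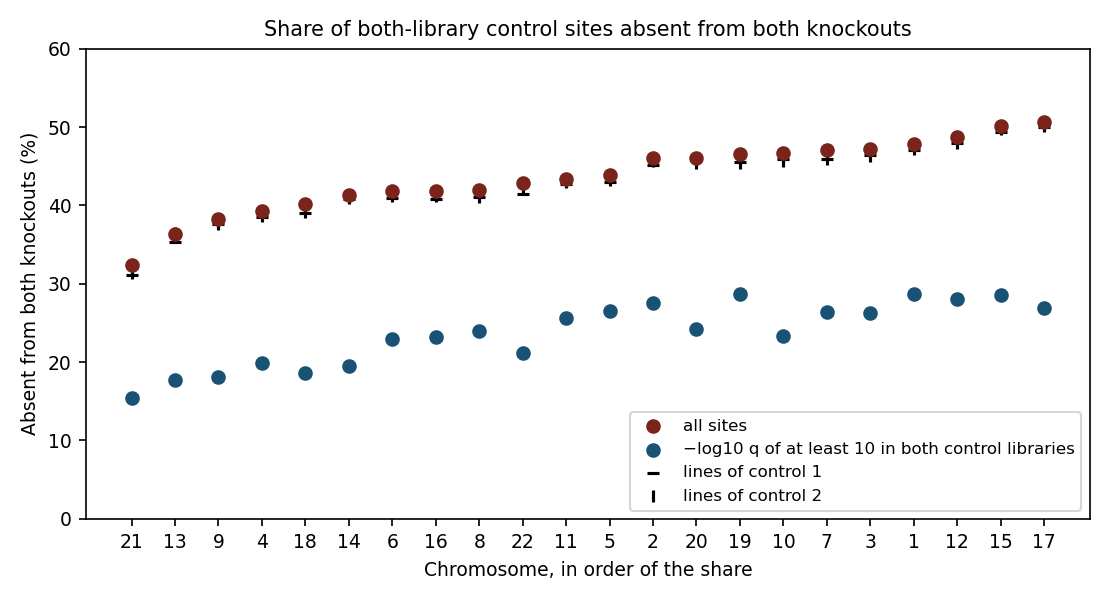
Share of both-library control sites absent from both knockouts (y axis, percent) for chromosomes 1 to 22 in order of the share (x axis), for all sites and for sites with a −log10 q of at least 10 in both control libraries. Short bars mark the share among the peaks of each control library, which lie within 2 percentage points of the points for all sites. Those peaks overlap the other control library by the rule. Chromosome 21 is lowest in both sets, at 32.4% and 15.4%.

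The cases at the edges of the rule are given as values only. The widest control peak inside it measured 1984 bp (chr9:33825199-33827182, −log10 q 48.4 in control 1). The narrowest kept out by width measured 2011 bp (chr12:123692561-123694571, −log10 q 16.2 in control 2). A knockout peak touched 5 regions without overlap, the strongest at chr1:173958337-173958694 (lower −log10 q 6.35), next to a METTL3 knockout 3 peak with a −log10 q of 4.95. By contrast, 9 control peaks were kept out by an overlap of 1 bp. The strongest was at chr15:65119139-65119889, with a −log10 q of 39.3 in control 1, against a CFL1 knockout 5 peak with 10.8.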

How the data were processed

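Per the submitters' processing notes, STAR, MACS2 and bedtools were used with genome build hg19. Per the labels, the lists belong to m6A-seq samples of total RNA. Settings and the use of input are unstated in these sources. The values deposited per peak are a fold enrichment (a ratio), −log10 p, −log10 q and the summit. They are the authors' own and were used to describe, rank and filter peaks. Each list joins 2 separately called libraries, told apart by the peak names. Overlaps were computed with Python 3.11.15, NumPy 2.4.6, pandas 2.3.3 and SciPy 1.17.1, in code tested on simulated data. For flanking peaks an exact permutation of libraries was planned, but its p is not given, because the same contrast chose the regions.

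The members, lists and tests were chosen with earlier results of these data known. Regions named are the 12 with the highest lower −log10 q of the 2 control libraries, 4 more by fold, the cases at the edges of the rule and the 3 windows of 100 kb with the most regions. The stretches of neighbouring sites and the missing peak numbers were added after seeing the data. Shares have exact 95% intervals for counting error only. The planned gene lists, marker genes, positions in genes and motifs need an hg19 annotation or genome, which was not used here.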

Additional observations from a re-analysis of the deposited data

How the results depend on the processing

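The share of both-library control sites absent from both knockouts was 45.1%. The SD between the shares of peaks in the 2 control libraries was 0.112 percentage points. The rule keeps that SD small, because peaks of the libraries had to overlap, so small changes exceed it. The share moved by more than 1 SD to 47.6% with an overlap of 50% of the shorter peak. It also did so with the control summit inside the knockout peak, to 50.2%. It was 39.3% with no knockout peak within 500 bp, 37.6% with every list limited to a −log10 q from 5, 24.0% with control limited to 10 or more, 38.1% with folds from 4, and 46.5% to 53.7% without each library in turn. It did not move by 1 SD when peaks within 100 bp were joined or without the width limit. The number of regions moved by over 1.5 times to 13425, 5930 and 9527 at those 3 thresholds, which leave fewer peaks by construction, and to 4804 without any missing peak number, an alternative chosen after seeing the data. Without each library in turn it ran from 24411 to 40012. The ratio of flanking peaks, knockout over control, reversed to 1.09 when only peaks of −log10 q 10 or more were counted and used for scaling. The cause was not tested. Over all listed peaks this ratio was 0.696 without scaling. The range of the share over chromosomes was 18.2 percentage points, and 13.3 for sites with a −log10 q of at least 10. No paired analysis was possible because peak names number the knockout libraries 3 and 5, while the labels use 1 and 2. Positions in genes and motifs were not run. Read depth is unknown, so an absent peak may lie just under a threshold.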

Other observations

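Wide control peaks were left out of the regions and were rarely absent. Of the 1713 control peaks of 2000 bp or more that overlapped the other control library on chromosomes 1 to 22, 48 (2.80%) were absent from both knockouts. Of the narrower peaks chosen in the same way it was 44.3%. A wide peak can meet a knockout peak by its length alone, and the sets were not matched for strength. The long stretches of sites that were not absent, 469 with at least 10 sites each, held 22.4 and 24.2 peaks per Mb in control 1 and 2. The knockout libraries held 38.3 and 35.0 (CFL1 knockout 3 and 5) and 31.0 and 31.9 (METTL3 knockout 3 and 5) peaks per Mb in them. The choice of sites in part sets this difference from control, because sites with an absent region were left out. It was not tested.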
